A study of Homo sapiens with 9 samples.

Results

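ISL1, PRRX1 and NKX2-1 are regulators of development, and BEND4 is a gene of little known function. These 4 genes had array probes well above background on every untreated and every 8 nM DIG-MSK array, and on no 80 nM DIG-MSK array. They were chosen by exactly these measured values, out of 19720 gene symbols on the array, so their loss of signal at 80 nM is a description and carries no test. The 4 genes have 5 of the 42405 gene probes. Each probe is listed with a RefSeq transcript of its gene, ISL1 with NM_002202, PRRX1 with NM_006902, NKX2-1 with NM_003317 and both probes of BEND4 with NM_207406.

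The samples were cultures of A2780, an established human ovarian carcinoma cell line, grown for 24 h in 3 groups: untreated, with 8 nM DIG-MSK, or with 80 nM DIG-MSK. DIG-MSK (EC-8042) is an analogue of mithramycin, an antibiotic that contacts DNA rich in C and G through its minor groove. Each group had 3 independent cultures, each with a one-colour (Cy3) array of its own, 9 arrays in all, and all groups shared the same cell line and medium. Slide 1 carried the arrays of the untreated and 8 nM cultures, and slide 2, scanned separately, those of the 80 nM cultures, so in every value below the higher concentration and the second slide cannot be told apart.

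The genes belong to 4 families of DNA-binding or chromatin proteins. ISL1 is a LIM-homeodomain factor: its homeodomain binds DNA, its LIM domains bind cofactors such as LDB1, and it is known for motor neurons, the second heart field and pancreatic islets. PRRX1 is a paired-related homeodomain factor of limb and craniofacial mesenchyme that is also linked to epithelial-mesenchymal transition. NKX2-1, also called TTF-1, is an NK-type homeodomain factor of lung, thyroid and ventral forebrain, and in the clinic it is a marker of lung and thyroid tumours. BEND4 carries a BEN domain, a module found in several chromatin-associated repressors, and little is known of its own function.

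Since the compound studied binds C/G-rich DNA, the promoter windows of the 4 genes are shown here. Each holds 300 bases, from 250 before to 50 after the gene's start, taken from RefSeq on GRCh38.p14 and written 5′ to 3′ as that table gives it. Capitals mark GGGCGG or its reverse complement CCGCCC, the core of the GC box that Sp1 binds.
ISL1, chr5:51383198-51383497, plus strand: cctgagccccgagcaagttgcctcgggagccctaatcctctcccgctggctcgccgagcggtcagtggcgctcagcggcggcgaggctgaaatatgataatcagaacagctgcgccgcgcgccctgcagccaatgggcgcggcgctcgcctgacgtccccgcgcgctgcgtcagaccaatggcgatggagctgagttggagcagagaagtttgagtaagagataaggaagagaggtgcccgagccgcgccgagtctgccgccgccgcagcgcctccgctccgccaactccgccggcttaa
PRRX1, chr1:170663881-170664180, plus strand: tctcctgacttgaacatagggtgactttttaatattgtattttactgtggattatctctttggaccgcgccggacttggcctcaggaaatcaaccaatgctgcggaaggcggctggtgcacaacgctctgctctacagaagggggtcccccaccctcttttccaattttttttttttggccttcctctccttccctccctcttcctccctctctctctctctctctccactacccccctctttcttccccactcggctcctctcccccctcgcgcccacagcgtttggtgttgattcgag
NKX2-1, chr14:36520183-36520482, minus strand: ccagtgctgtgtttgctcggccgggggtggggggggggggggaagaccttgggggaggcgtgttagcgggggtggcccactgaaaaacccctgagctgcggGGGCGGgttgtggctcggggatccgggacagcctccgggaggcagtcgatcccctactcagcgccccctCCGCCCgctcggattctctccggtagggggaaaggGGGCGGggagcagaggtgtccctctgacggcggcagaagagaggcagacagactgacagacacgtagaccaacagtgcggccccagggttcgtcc
BEND4, chr4:42152606-42152905, minus strand: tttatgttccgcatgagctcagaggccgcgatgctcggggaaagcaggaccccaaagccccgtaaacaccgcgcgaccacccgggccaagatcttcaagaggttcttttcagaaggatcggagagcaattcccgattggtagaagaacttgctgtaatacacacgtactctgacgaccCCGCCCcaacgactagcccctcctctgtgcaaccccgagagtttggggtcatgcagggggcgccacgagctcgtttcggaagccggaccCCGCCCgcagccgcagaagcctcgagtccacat
The window of NKX2-1 held 3 matches of GGGCGG on either strand and that of BEND4 held 2, while those of ISL1 and PRRX1 held 0. In the whole table, 45% of 35116 windows held at least 1 match. The G and C share was 66.7% for ISL1, 53% for PRRX1, 69% for NKX2-1 and 59.7% for BEND4, beside a median of 58.7% over all windows, so 3 of the 4 lay above the median and PRRX1 below it. The ratio of observed to expected CpG was 1.08 for ISL1, higher than in all but a few windows, as 96.6% of them lay at or below it. For the others it was 0.945 (BEND4), 0.615 (NKX2-1) and 0.587 (PRRX1), beside a median of 0.579. A match of GGGAGG was found 2 times each for PRRX1 and NKX2-1 and 0 times for ISL1 and BEND4, and 49.3% of all windows held it. None of the 4 windows held CACGTG, TTTCGCGC or TGACGTCA, which 7.26%, 0.515% and 1.85% of all windows held on either strand. NKX2-1 has a second window in the table, at chr14:36519507-36519806, with a G and C share of 52% and 0 matches of GGGCGG. No motif searched for therefore occurred in all 4 windows, and these matches describe letters only, not binding.

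The values used are processed intensities, which the authors' scanner software had corrected for background. Levels are log2 intensities relative to the array's own 75th percentile, which lay between 831.7 and 1170 on the 9 arrays. A spot is called well above background by a flag of the same software, and the lowest intensity of a probe with that call was between 13.3 and 15.17 on the untreated arrays, between 15.39 and 18.46 on the 8 nM arrays and between 13.27 and 17.94 on the 80 nM arrays. The number of probes well above background overlapped between the groups, with 26385 to 26978 on untreated, 24814 to 26312 on 8 nM and 25161 to 27151 on 80 nM arrays. The mean net signal of negative controls was 31.14 to 38.59 on slide 1 and 22.09 to 22.68 on slide 2, and its part in the results was not tested. Of 9 markers of ovarian carcinoma epithelium on the array, KRT8, KRT18, KRT19 and EPCAM were well above background on all untreated arrays, whereas no probe of CDH1, PAX8, WT1, MUC16 or MSLN was on all arrays of any group. Markers of other cell types were detected on all untreated arrays for 4 of 5 genes of fibroblasts, at levels from -3.74 to 3.18, for 2 of 4 of leukocytes, from -4.17 to -3.96, and for CDH5, at -3.19, of 3 of endothelium. Among the fibroblast genes PDGFRA and DCN were lower at 80 nM, by log2 changes of -6.51 and -1.39, while THY1 (0.18) and PDGFRB (0.00) were not called, and the part of this in the results was not tested.

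ISL1 had intensities of 2567, 3112 and 3029 on untreated arrays 1, 2 and 3, of 3770, 2057 and 3753 on the 8 nM arrays, and 3.98, 3.69 and 4.68 on the 80 nM arrays. The untreated and 8 nM values overlapped, and all 3 values at 80 nM lay below the lowest intensity called well above background on their own arrays. PRRX1 had 1321, 2032 and 1992 on untreated arrays, 1822, 1755 and 2279 at 8 nM, and 7.81, 11.4 and 5.46 at 80 nM. Array 2 came nearest to the lowest intensity called well above background, which was 13.27 there, and the probe as a whole was called on none of the 3.

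NKX2-1 had intensities of 789.9, 1036 and 985.8 on untreated arrays, and 1164, 1017 and 1193 at 8 nM, falling to 3.77, 3.21 and 4.44 at 80 nM. BEND4 was measured by 2 probes. The brighter one read 1962, 2864 and 2883 on untreated arrays, 2465, 2337 and 3117 at 8 nM, and 5.29, 11.0 and 4.81 at 80 nM. The dimmer one read 124.3, 134.9 and 169.8 on untreated arrays, 150.9, 67.18 and 169.1 at 8 nM, and 3.59, 3.097 and 4.15 at 80 nM. Both probes of BEND4 thus went from called on 6 of 6 arrays to called on 0 of 3. In RNA of whole cultures, fewer cells that express a gene and less RNA per cell cannot be told apart.

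**Figure D1:**
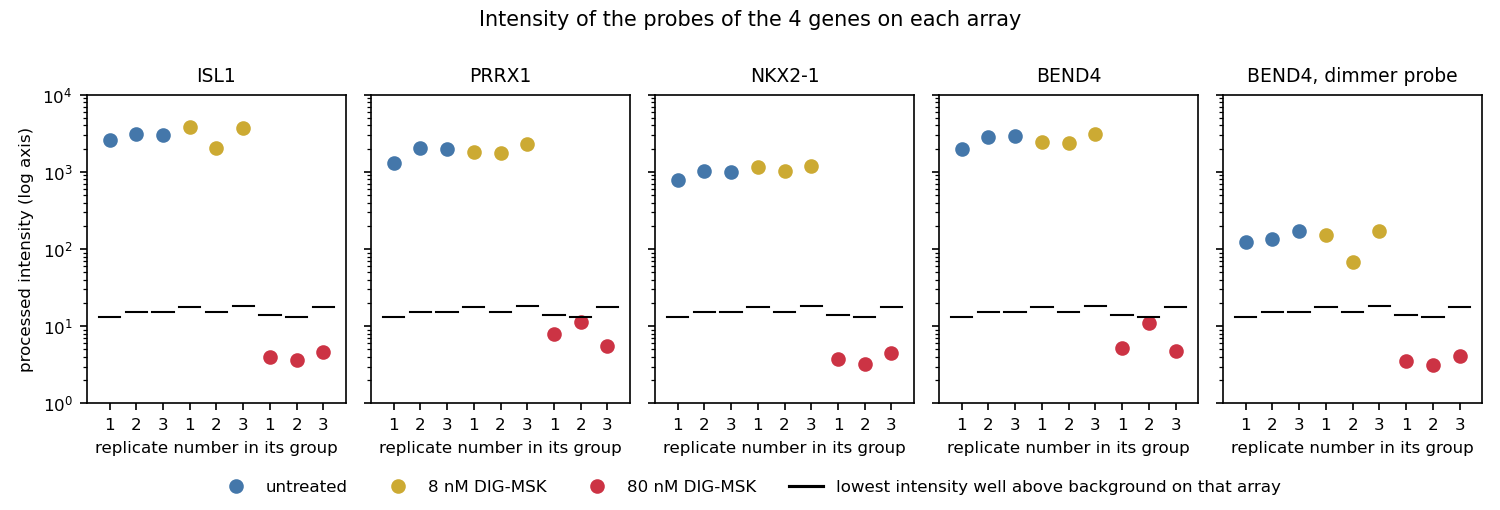
Processed intensity (log axis) of the 5 probes on the 9 arrays, by replicate number within each group; short black lines give the lowest intensity called well above background on the same array. The points of untreated and 8 nM cultures overlap well above the lines, between 67.18 and 3770, and all 80 nM points lie below them, between 3.097 and 11.4.

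With no probe called at 80 nM, only a lower bound of the fall is given, as the mean untreated level against the lowest signal called well above background on each 80 nM array. It holds for the background correction and the floor used here, and some other processing gave smaller falls, listed in the section on processing below. By this bound, ISL1 was at least 186-fold lower at 80 nM than in untreated cells (mean untreated level 1.57 ± 0.06, SD, n = 3, against a measured mean at 80 nM of -7.83 ± 0.19). The brighter BEND4 probe was at least 162-fold lower (1.37 ± 0.13 against -7.16 ± 0.71), PRRX1 at least 112-fold lower (0.84 ± 0.15 against -6.89 ± 0.56) and NKX2-1 at least 59.8-fold lower (-0.07 ± 0.01 against -7.95 ± 0.23). For the dimmer BEND4 probe the bound was 9.1-fold, from a level of -2.79 ± 0.22 that leaves less room above background. Against the 8 nM cultures the bounds were 186-fold for ISL1, 158-fold for the brighter BEND4 probe, 117-fold for PRRX1, 67.8-fold for NKX2-1 and 7.23-fold for the dimmer BEND4 probe. The bound for a gene depends on how bright its probe was, so these folds give no order of the true falls.

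The spots behind these values were read one by one. ISL1, PRRX1 and NKX2-1 have 1 probe with 2 spots each and the probes of BEND4 have 1 spot each, which makes 8 spots per array and 24 readings per group. All 24 readings were called well above background in the untreated and in the 8 nM group, and 1 of 24 was at 80 nM. No reading carried an outlier flag, and on the 6 arrays of slide 1 the 2 spots of a probe differed by at most 0.20 on the log2 scale. The exception at 80 nM was a spot of PRRX1 on array 2, with an intensity of 18.67, beside 6.93 for its partner spot on the same array. A probe was counted as well above background only where most of its spots carried the call, so PRRX1 stayed just inside the rule. The nearest reading outside the call was the same PRRX1 spot on 80 nM array 1, at 13.74, followed by the brighter BEND4 probe on array 2, at 11.02.

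A weaker flag of the software, a signal positive and significant against the local background, was set in 9 of the 24 readings at 80 nM. These were 6 of 6 for PRRX1, 2 of 3 for the brighter BEND4 probe, 1 of 6 for ISL1, 0 of 6 for NKX2-1 and 0 of 3 for the dimmer BEND4 probe. Set beside the 308 negative control spots of the same array, the readings of PRRX1 were reached or passed by 2.27% to 5.52% of these controls, those of the brighter BEND4 probe by 2.92% to 14.3%, those of ISL1 by 4.87% to 21.4% and those of NKX2-1 by 9.74% to 75.6%. For NKX2-1, 3 of the 6 readings lay below the median of the negative controls. PRRX1 would thus not have been chosen had 1 spot been enough for the call, and PRRX1 and the brighter BEND4 probe would not have been chosen by the weaker flag.

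The change at 8 nM was the one comparison of these genes with a test. None of the 4 was called by limma with the rule of the study's methods (a ratio to untreated of 1.5 or more, or of 0.67 or less, and an unadjusted p below 0.05), which called 7.09% of the 21832 genes tested at this concentration. The 8 nM arrays were required to be well above background by the choice of the genes, but the size of the change was not. ISL1 changed by 0.00 on the log2 scale (standard error 0.13, 95% interval -0.31 to 0.31, Benjamini-Hochberg adjusted p = 0.99, limma). For ISL1, 2 of 3 values at 8 nM lay above all untreated values and 1 below. PRRX1 changed by 0.06 (standard error 0.25, interval -0.52 to 0.64, limma adjusted p = 0.89), with 1 of 3 values above the untreated ones.

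NKX2-1 was the 1 member whose 3 levels at 8 nM, 0.03 to 0.29, all lay above the 3 untreated levels, -0.08 to -0.05. Its change was 0.18 (standard error 0.12, interval -0.10 to 0.46, limma adjusted p = 0.34) and did not pass the test. BEND4 changed by -0.04 with the brighter probe (standard error 0.31, interval -0.74 to 0.66, limma adjusted p = 0.94) and by -0.33 with the dimmer one (standard error 0.23, adjusted p = 0.35). The intervals of ISL1 and NKX2-1 lie inside the 1.5-fold limits, whereas those of PRRX1 and BEND4 reach past them. By this fit, a change of that size at 8 nM lies within the error for the latter pair. The error pools all groups, the 80 nM arrays included, where the SD was 0.56 for PRRX1 and 0.71 for the brighter BEND4 probe. In the untreated and 8 nM groups the SD was 0.15 and 0.21 for PRRX1, and 0.13 and 0.20 for that BEND4 probe. The wider intervals of this pair thus include scatter near background at 80 nM, not only the spread of the groups compared.

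**Figure D2:**
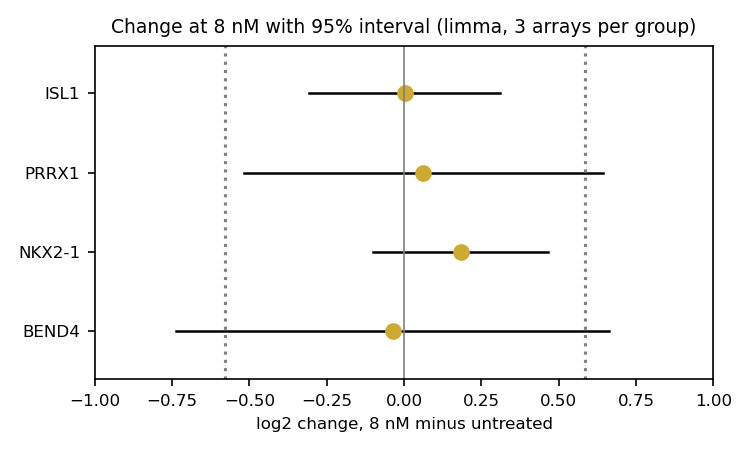
Log2 change of the 4 genes at 8 nM DIG-MSK against untreated cells (points) with 95% intervals from limma (lines), 3 arrays per group; dotted lines mark the fold limits of the call. The points lie between -0.04 and 0.18, and every interval includes 0.

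The array of replicate 2 at 8 nM, which had the fewest probes well above background (24814), held both the lowest level of ISL1 in its group (1.30, beside 1.68 and 1.72) and the highest levels there of PRRX1 (1.08), NKX2-1 (0.29) and the brighter BEND4 probe (1.49). The dimmer BEND4 probe was lowest on that array, at -3.63. The 2 probes of BEND4 therefore stood at opposite ends of the group on the same RNA.

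The pattern that defined these genes was uncommon among probes. Of 23868 gene probes called on all 6 arrays of slide 1, 501 were called on no 80 nM array, or 2.10%, and the 5 probes of the 4 genes are among them by choice. A further 185 probes were called on 1 of 3 arrays at 80 nM, 308 on 2 of 3 and 22874 on 3 of 3, and 251 probes had the opposite pattern, called on none of the 6 arrays and on all 3 at 80 nM. The median bound of the 501 probes was 1.78 on the log2 scale. Among the 405 of them with a gene symbol, ranked by bound, ISL1 stood in place 4, the brighter BEND4 probe in place 5, PRRX1 in place 6, NKX2-1 in place 10 and the dimmer BEND4 probe in place 100. HOXB9 had the largest bound of the 405, 265-fold. These places mainly follow how bright a probe was in untreated cells and give no order of the true falls. As the 4 genes were chosen by this loss, their places are a description and carry no test. Of 8734 probes with a mean untreated level at or above the 75th percentile of their array, 10 were lost. By choice, these include the probes of ISL1 and PRRX1 and the brighter one of BEND4. A brighter probe must also fall further to be counted as lost.

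**Figure D3:**
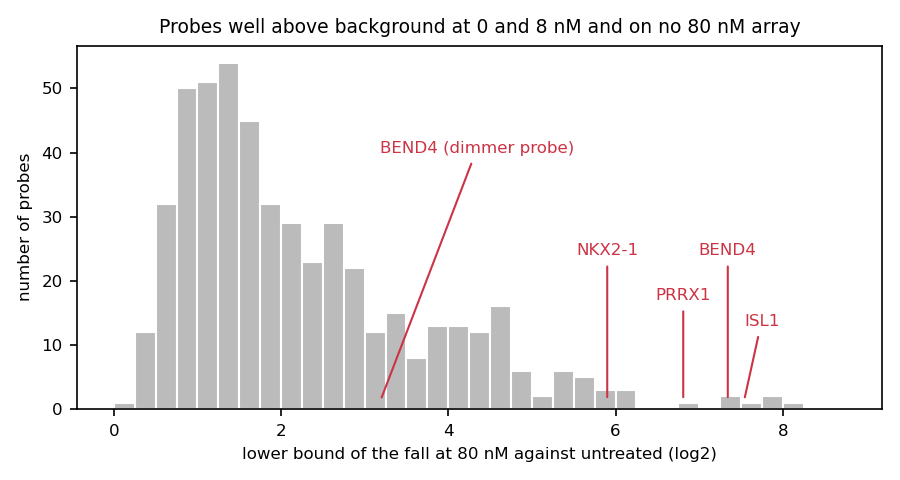
Number of probes by the lower bound of their fall at 80 nM DIG-MSK (log2), for the 501 probes called on all 6 arrays of slide 1 and on no 80 nM array; red lines mark the 5 probes of the 4 genes. Most bounds lie below 4, around a median of 1.78, and 4 of the 5 marked probes lie between 5.90 and 7.54.

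The relatives of the 4 genes fell at 80 nM where they were called. Leaving out the 4 genes, their families have 59 genes, of which 56 were on the array and 33 could be tested. Of these 33, 18 were down-regulated and 0 up-regulated at 80 nM, where the same rule called 16.3% of all genes down and 18.8% up. At 8 nM, 3 of the 33 were down-regulated and 0 up-regulated, where the rule called 2.84% of all genes down and 4.25% up. The genes higher at an unadjusted limma p below 0.05, of smaller size than the rule asks, were 3 at 80 nM and 1 at 8 nM. A gene could be tested if any 1 group had its probe well above background on 3 of 3 arrays, and the 18 include genes that passed only through the groups without 80 nM DIG-MSK. With 21 genes well above background on all 9 arrays, 11 were down-regulated and 0 up-regulated. Well above background on all 9 arrays were 22874 gene probes, and over all genes that filter gave 2625 down-regulated and 3243 up-regulated. The number of genes behind these probes is not given, so no share is set beside the 11 of 21. Of the 33, the number down-regulated was 15 with normexp correction, 16 with the authors' values and 22 with spike-in scaling. Over all genes, the same settings gave 2352, 2862 and 5722 down-regulated, beside 3561 in the main fit. It was 17 to 19 when single arrays were left out. The gene BEND6 was up-regulated without untreated replicate 1 and with the mean of a gene's probes. All p-values below are limma's with Benjamini-Hochberg adjustment over all genes tested, for 80 nM against untreated. Beside a bound, the p-value and the call belong to the measured difference, which uses 80 nM signals not called well above background. The bound itself has no test.

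Of the LIM-homeodomain genes, 7 other than ISL1 were tested and 4 were down-regulated. LHX6, a factor of cortical interneurons, changed by -1.21 on the log2 scale (SE 0.07, adjusted p = 2.3e-06), and LHX3, which like ISL1 acts in motor neurons and pituitary, had -1.11 (standard error 0.37, adjusted p = 0.03) after -0.91 at 8 nM (adjusted p = 0.14), where it was called by the unadjusted rule. LHX1 was at least 2.55-fold lower (adjusted p = 5e-04) and LHX2 fell by 0.96 (adjusted p = 0.014), both from levels near background, and neither call held with normexp background correction. ISL2, the closest relative of ISL1, had a change of -0.26 (adjusted p = 0.1), LHX8 of -0.45 (adjusted p = 0.00047) and LMX1B of -0.58 (adjusted p = 0.039), and none of the 3 was called. LMX1B lay close to the fold limit and was called in 5 of 19 alternatives, among them quantile, median and spike-in scaling, with changes between -0.85 and -0.29. The median of the 7 was -0.96, beside 0.08 over all genes.

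Of the cofactors that LIM-homeodomain proteins work with, 7 were tested, 3 were down-regulated and 0 up-regulated, with a median of -0.11. The same rule called 16.3% of all genes down and 18.8% up. The 3 were LMO1, LMO3 and LMO4, LIM-only proteins that compete for LDB1. LMO1 changed by -5.54 on the log2 scale (SE 0.09, adjusted p = 5e-09), from a mean level of 3.29 ± 0.10 to -2.25 ± 0.02, and remained well above background on all 9 arrays. LMO4 changed by -1.54 (adjusted p = 5.5e-06), and LMO3 was at least 3.66-fold lower (adjusted p = 0.0027). The untreated level of LMO3 had an SD of 1.48, and its bound was 2.02-fold without untreated replicate 2 and 5.08-fold without untreated replicate 1. LDB1 itself (-0.11, adjusted p = 0.56) and its partners SSBP2 (0.13), SSBP3 (0.32) and SSBP4 (0.05) were not called.

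Of the paired-type homeobox genes, 14 other than PRRX1 were tested, 7 were down-regulated and 0 up-regulated, with a median of -0.72. ALX1, a relative of PRRX1 in craniofacial mesenchyme, had a change of -2.95 (standard error 0.10, adjusted p = 1.5e-07). OTX1 (-0.88), UNCX (-0.83) and SHOX2 (-0.60) were called with smaller changes, and the call of SHOX2 was lost without replicate 1 of the untreated or of the 80 nM group, with changes between -0.88 and -0.48 over all alternatives. PITX1 (-0.34, and 0.39 with its other probe) and PITX3 (0.25) were not called.

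Of the NK homeobox genes, 6 other than NKX2-1 were tested, 3 were down-regulated and 0 up-regulated, with a median of -0.58. NKX3-2, a factor of the axial skeleton, was at least 7.47-fold lower (adjusted p = 0.00054). NKX2-5, a factor of the heart, had a change of -1.03 (standard error 0.38, adjusted p = 0.043), and its call was lost without replicate 1 or 3 of the untreated group or replicate 1 or 3 of the 80 nM group, with changes between -1.31 and -0.91 over all alternatives. NKX2-3, the NKX2 gene left, had a change of 0.42 (adjusted p = 0.011) and was not called.

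Of the BEN domain genes, 6 other than BEND4 were tested, 4 were down-regulated and 0 up-regulated, with a median of -0.75. NACC2, a transcriptional repressor with a BTB domain, had a change of -2.80 (standard error 0.10, adjusted p = 1.7e-07) and was one of the few relatives also called at 8 nM (-0.77, adjusted p = 0.0019). NACC1, its closest relative, changed by -1.09 (adjusted p = 5.7e-05), BEND7 by -0.83 (adjusted p = 1.6e-05) and BEND3, a heterochromatin protein, by -0.68 (adjusted p = 0.00094). BEND2 (-0.05) and BEND6 (0.32) were not called. The other probe of BEND6 had a level of -7.90 in untreated cells and of -5.16 at 80 nM, a difference of 2.74, and the gene's change lay between -0.19 and 1.53 over all alternatives.

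**Figure D4:**
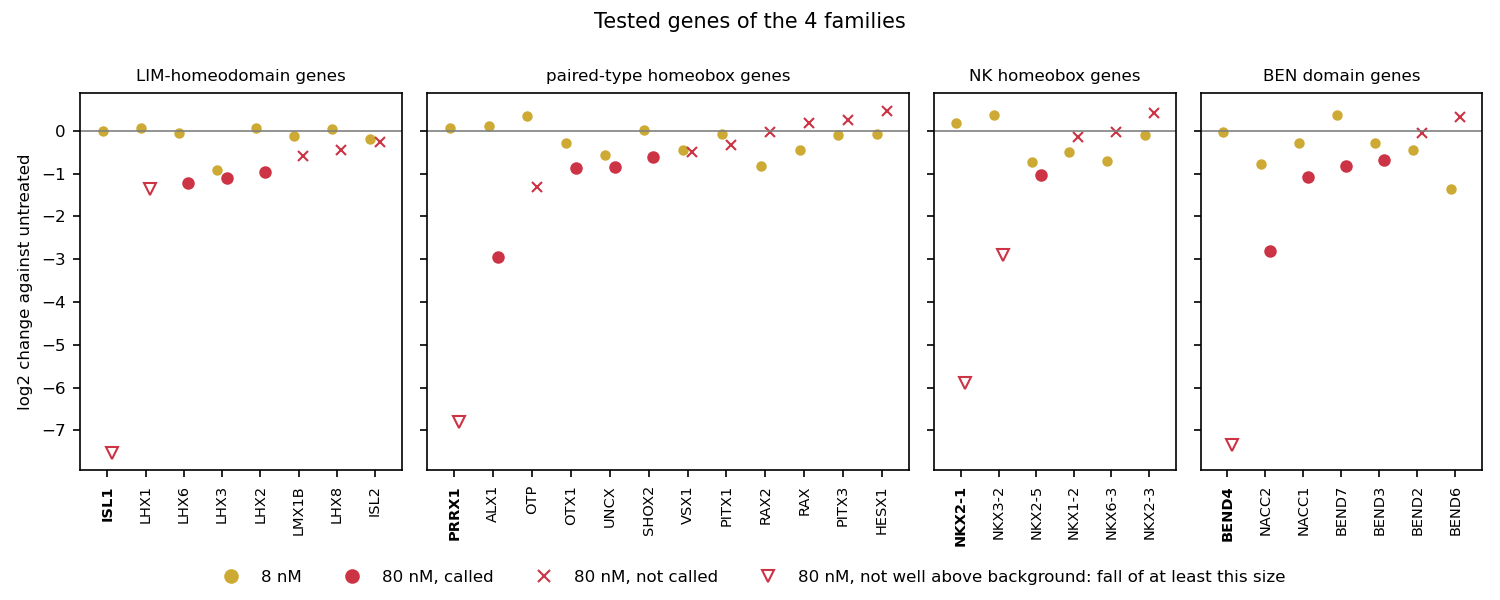
Log2 change against untreated cells at 8 nM (yellow) and 80 nM (red) for the tested genes of the LIM-homeodomain, paired-type, NK and BEN domain families. Filled red circles passed the call and crosses did not. Open triangles give the lower bound of the fall of genes not well above background on any 80 nM array, all of which were called. The 4 genes of the report are in bold, and 14 of the other 29 genes shown are called below 0 and none above.

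Partners and targets known from normal tissue included genes called in either direction, as did all genes tested (16.3% down and 18.8% up). For ISL1, 6 of 16 listed genes of heart and motor neuron were tested, of which 3 were down-regulated and 1 up-regulated at 80 nM. HAND2, a factor of the heart and sympathetic neurons, was at least 15.1-fold lower (adjusted p = 1e-08). TBX1, of the second heart field, had a change of -1.66 (adjusted p = 7.9e-07) with the brighter of its 2 probes and of -0.24 with the dimmer, which was near background, and NKX2-5 is given above. MEF2C, a muscle and neural factor, rose by 1.09 (standard error 0.07, adjusted p = 4.4e-06). The cholinergic genes CHAT (0.36) and SLC18A3 (0.27) were not called.

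For PRRX1, 9 of 15 listed mesenchymal genes were tested, of which 3 were down-regulated and 2 up-regulated. CDH2, N-cadherin, had a change of -2.33 (adjusted p = 5.1e-06; -2.65 with its other probe) and TNC, tenascin C, was at least 3.34-fold lower (adjusted p = 1.9e-05), a call lost with normexp correction. ZEB2 was at least 1.47-fold lower, a bound under the 1.5-fold limit. Its call rests on a measured difference of -2.65 (adjusted p = 0.00014), from a level near background that was called on 0 of 3 arrays at 8 nM. The call of ZEB2 was lost with normexp correction and with the authors' values, where the change was as small as -0.24. SNAI2 rose by 1.80 (standard error 0.16, adjusted p = 3.5e-05) and POSTN, periostin, by 1.17 (adjusted p = 1.2e-05). TWIST1 (-0.11), ZEB1 (-0.09), SNAI1 (-0.58) and VIM (0.40) were not called with the probe used. The other probes of ZEB1 (-1.80) and TWIST1 (-1.26) were lower, and with the mean of a gene's probes both genes were called, which made 5 of the 9 down-regulated. SNAI1 was called in 6 of 19 alternatives, quantile, median and spike-in scaling among them, with changes between -0.85 and -0.29.

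For NKX2-1, 11 of 20 listed genes of lung and thyroid were tested, of which 2 were down-regulated and 2 up-regulated. ABCA3, a lipid transporter of surfactant-producing cells, had a change of -1.60 (adjusted p = 3.4e-06), and LMO3 is given above. LAMP3 rose by 1.36 (standard error 0.31, adjusted p = 0.0054). SFTPA2, a surfactant protein, had 0.60 (adjusted p = 0.0022), a call lost without untreated replicate 3, without 80 nM replicate 2 and with quantile, median and spike-in scaling and the authors' values, over a range from 0.33 to 0.66. The thyroid gene TG (-0.01) and the lung genes SFTPC (0.50), SCGB1A1 (0.10) and NAPSA (0.10) were not called. With each array left out the list had 2 to 4 genes down-regulated, the most without 8 nM replicate 1, and 1 to 3 up-regulated, the fewest without untreated replicate 3. In these 3 lists the share down-regulated was 3 of 6, 3 of 9 and 2 of 11 tested, beside 16.3% of all genes. The share up-regulated was 1 of 6, 2 of 9 and 2 of 11, beside 18.8% of all genes. The list of NKX2-1 lay near both shares.

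The genes next to the 4 genes on their chromosomes were described next, with the 5 nearest tested protein-coding genes on each side in RefSeq order, 40 in all. At 80 nM, 12 of the 40 were down-regulated and 8 up-regulated, beside 16.3% and 18.8% of all genes. At 8 nM 0 of 40 were called by limma, beside 7.09% of all genes, with 8 of 40 at an unadjusted p below 0.05 but under the fold limit. With spike-in scaling, which shifted the median of all probes at 80 nM from 0.07 to -0.21, 19 were down-regulated and 5 up-regulated. Of the 12, 6 were well above background on all 9 arrays. The median change of the 40 at 80 nM was -0.29, beside 0.08 over all genes.

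Around BEND4, 5 of 10 genes were down-regulated and 2 up-regulated. SHISA3, the next gene after BEND4 and a regulator of Wnt and FGF signalling, had intensities of 4578, 7547 and 6682 on untreated arrays, 6102, 5100 and 6966 at 8 nM, and 43.95, 43.8 and 45.42 at 80 nM, all well above background. It changed by -7.05 on the log2 scale (SE 0.10, adjusted p = 4.5e-09), a fall measured on both sides. ATP8A1, the following gene and a phospholipid flippase, read 952.8, 1345 and 1140 on untreated arrays, 1188, 1032 and 1280 at 8 nM, and 10.84, 16.54 and 11.89 at 80 nM, at least 67.6-fold lower (adjusted p = 5.8e-08). GRXCR1, the third gene on that side, was at least 3.75-fold lower (adjusted p = 9.6e-06).

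On the other side of BEND4 the nearest gene, the zinc transporter SLC30A9, rose by 0.84 (standard error 0.15, adjusted p = 0.0013), a call lost with spike-in scaling, and TMEM33 had 0.13. LIMCH1 lay farther out on that side and was at least 2.80-fold lower (adjusted p = 1.3e-05). BEND4 thus stood between a gene that rose and 3 consecutive genes that fell, and those 3 had changes between -0.12 and 0.13 at 8 nM.

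Around ISL1, 3 of 10 genes were down-regulated and 2 up-regulated. ITGA1, the integrin subunit that is the next gene after ISL1, was at least 26.6-fold lower (adjusted p = 1.8e-08), from 420.7, 423.2 and 398.6 on untreated arrays and 575.3, 326.9 and 478.9 at 8 nM to 3.64, 3.35 and 4.23 at 80 nM. FST, follistatin, was at least 3.79-fold lower (adjusted p = 3.8e-07), and PARP8 had a change of -0.91 (adjusted p = 0.00015). EMB (1.16) and MRPS30 (1.10), on the other side, rose, EMB with the brighter of 2 probes of like level, since the other differed by 0.16. Between ITGA1 and FST, PELO (-0.51) and MOCS2 (-0.38) were not called.

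Around NKX2-1, 3 of 10 genes were down-regulated and 3 up-regulated. PAX9, a paired box factor of foregut and tooth that lies near NKX2-1, had a change of -2.42 (standard error 0.19, adjusted p = 1.5e-05) and its other probe was not well above background on any 80 nM array. SLC25A21 (-0.91) and MIPOL1 (-0.70) followed, the latter not called with normexp correction. INSM2, a zinc finger factor of neuroendocrine cells, rose by 2.81 (standard error 0.10, adjusted p = 2.4e-07), and SEC23A (1.28) and BRMS1L (0.87) rose too, BRMS1L not with spike-in scaling. Around PRRX1, by the brightest probe of each gene, KIFAP3 was down-regulated (-0.65, adjusted p = 0.00051), FMO4 was up-regulated (0.90, adjusted p = 1.6e-05) and 8 of the 10 neighbours were not called. Of these 8, DNM3, a dynamin, had a change of -0.29 with that probe, but its other probe, well above background on 3 of 3 arrays at 80 nM, had a level of 0.69 in untreated cells and of -0.79 at 80 nM, a difference of -1.48, and with the mean of the probes DNM3 was called (-0.89). FMO4 was not called with normexp correction or with the authors' values.

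**Figure D5:**
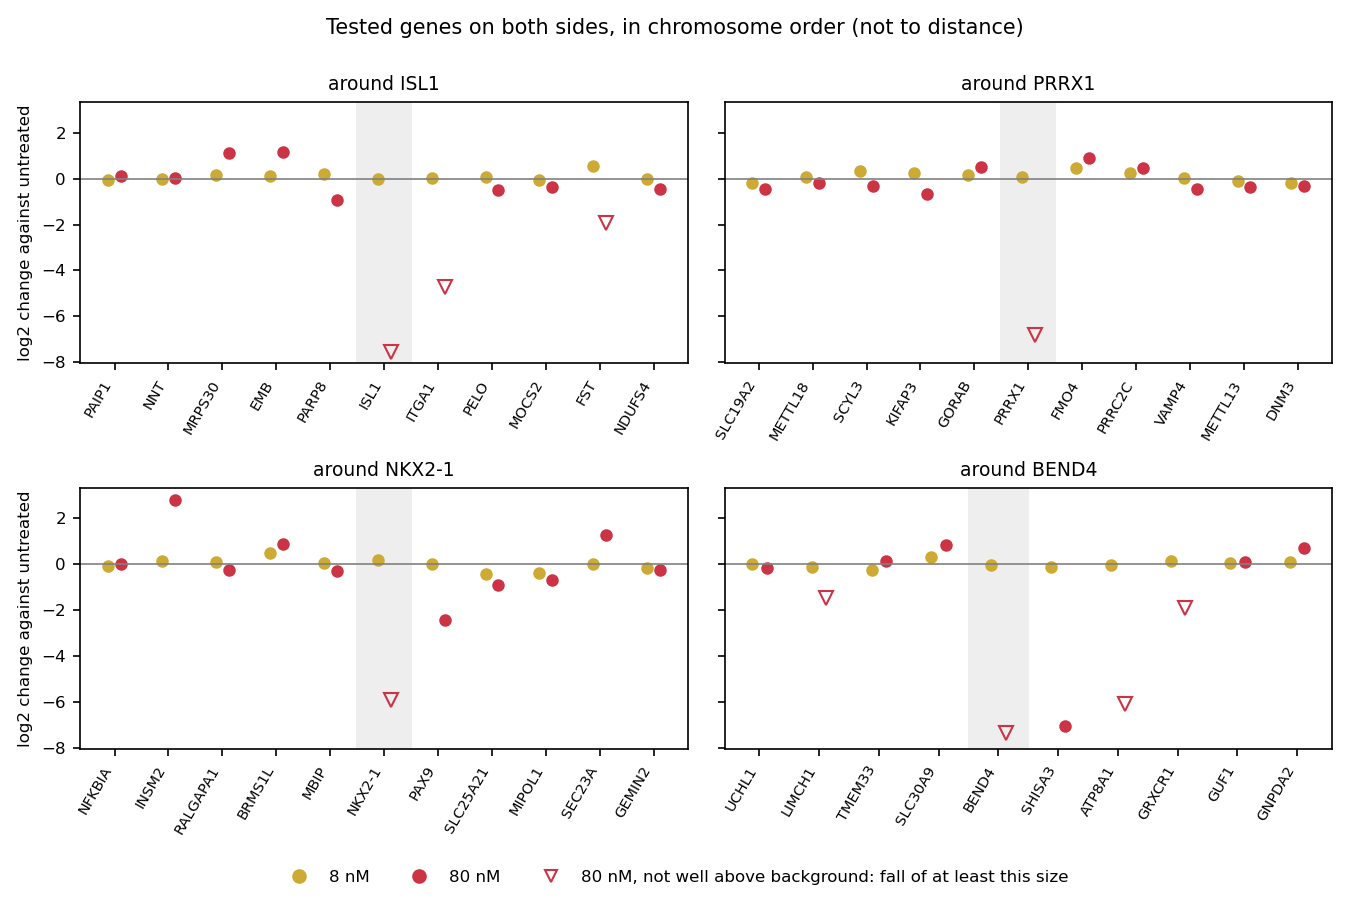
Log2 change against untreated cells at 8 nM (yellow) and 80 nM (red) of the nearest tested genes on each side of the 4 genes (grey band), 39 genes in all, in chromosome order and not to distance. Open triangles give the lower bound of the fall of genes not well above background on any 80 nM array. Red points reach below -4 at BEND4, with SHISA3 and ATP8A1, and at ISL1, with ITGA1, whereas no neighbour of PRRX1 reaches below -0.65 with the probe plotted.

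The genes whose levels ran most like those of the 4 genes over the 9 arrays were looked up among 13578 named genes that every untreated array detected well above background. Since the fall at 80 nM sets these correlations, they have no test, and between 176 and 282 genes correlated with each of the 4 above 0.99. For ISL1 they were RNLS, CXCR4 and its neighbour ITGA1, with Pearson's r of 0.9995, 0.9994 and 0.9994. For PRRX1 they were BEND4 (0.9995), AKR1C3 (0.9994) and FES (0.9991), and for BEND4 they were PRRX1 (0.9995), AKR1C3 (0.9992) and its neighbour ATP8A1 (0.9992). For NKX2-1 they included KCTD16 (0.9996) and NSUN3 (0.9995). Most of these genes were called on no 80 nM array, but FES was called on 1 of 3, and NSUN3, with a log2 change of -2.08, stayed well above background on all of them.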

How the data were processed

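Single-colour array intensities of A2780 cells were taken from 9 arrays, 3 per group, and groups and replicate numbers were taken from the labels. With Feature Extraction 10.7.3.1 the authors obtained the deposited spot intensity, corrected for background and not scaled between arrays. The labels name another labeling kit than the paper's Low Input Quick Amp kit, and the lowess step the paper names has no second channel to act on here. The authors also deposited log2 values per spot, which followed the median spot signal after quantile normalization and were used as an alternative only.

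The main value was the log2 intensity minus the 75th percentile over gene spots. Control spots and outlier spots were left out (4259 of 62976 spots were controls), and no gene probe was saturated. The spots of a probe were averaged as log2 values, and a probe was called well above background where most of its spots carried the flag, which for 2 spots means both. Probes with that call on all 3 arrays of a group were kept (26457 of 42405), and the brightest stood for a gene (21832 genes). RefSeq accessions marked 27245 probes, of which 25715 could be named through RefSeq genes on GRCh38.p14, used for names and gene order.

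Groups were compared with limma 3.58.1 in R 4.3.3 on all 9 arrays, with the fold and p rule of the methods, and the fit was tested on simulated data. Where no array of a group had a probe well above background, the lower bound of the fall was taken against a floor, on each array the lowest signal with that call or, if higher, the signal of the probe itself. The precision is limited by 3 arrays per group. The genes named were the 4 genes with every probe, called genes of the lists, the neighbours, and the 3 genes most like each of the 4 over the arrays. Some genes that this rule names are not reported here, in the text or the figures, but are part of the counts. The 4 genes, the lists and the tests were chosen with earlier results of these data known.

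Same-numbered untreated and 8 nM arrays deviated together weakly (correlations 0.101 to 0.163, beside -0.123 to -0.003 for other pairs). The numbers may thus pair these groups, which was not tested. For same-numbered 80 nM arrays the correlations were -0.082 to -0.003 with untreated and -0.124 to 0.016 with 8 nM arrays. The alternatives were normexp correction (offset 50, on the median signal), quantile, median and spike-in scaling, the authors' log2 values, averaging a gene's probes, no filter on dim probes or detection on all 9 arrays, only the arrays of slide 1, the replicate number as a block, adjusted p-values, other floors and flags, and each array left out in turn. A block with only the untreated and 8 nM arrays, and counting a probe by any of its spots, were added after seeing the data.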

Additional observations from a re-analysis of the deposited data

How the results depend on the processing

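No call of the 4 genes at 8 nM changed under any alternative run, the replicate block included. As each replicate number occurs in every group, that block can alter only the errors. The changes of 0.00, 0.06, 0.18 and -0.04 for ISL1, PRRX1, NKX2-1 and BEND4 stayed the same by design. The sign of a change near 0 turned for ISL1 with normexp correction (-0.001) and for BEND4 with median (0.015) and spike-in scaling (0.043). With each array left out, the change lay between -0.074 and 0.134 for ISL1, -0.024 and 0.178 for PRRX1, 0.096 and 0.227 for NKX2-1, and -0.113 and 0.077 for BEND4. The log2 bound of the fall at 80 nM, in the order ISL1, PRRX1, NKX2-1 and BEND4, was 7.54, 6.81, 5.90 and 7.34. It was 7.81, 7.09, 6.18 and 7.62 with spike-in scaling, and 9.31, 7.73, 7.68 and 8.48 with the 95th percentile of negative controls as floor. The authors' log2 values, not corrected for background, gave measured differences of 6.19, 5.22, 4.90 and 5.88. Over all alternatives, the smallest measured changes in the same order were -5.285, -4.427, -3.93 and -5.044. They were -2.184 for HAND2, -2.814 for ITGA1, -3.709 for ATP8A1, -0.746 for FST, -0.753 for GRXCR1 and -0.64 for LIMCH1. The folds given as at least a certain size thus hold for the main processing only. For NKX2-1 the bound was 5.96 with median scaling and 6.08 from the 8 nM arrays. With each array left out, the bounds were 7.44 to 7.68, 6.71 to 6.96, 5.80 to 6.05 and 7.25 to 7.49. The 501 lost probes became 406 with the weaker flag, 481 with any spot, and 509 to 627 with each array left out.

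Over all genes, 928 were up- and 620 down-regulated at 8 nM and 4104 and 3561 at 80 nM; normexp correction gave 448, 300, 2400 and 2352. Spike-in scaling gave 321 down-regulated at 8 nM and 2233 up- and 5722 down-regulated at 80 nM, and the authors' values gave 614 and 291 at 8 nM. At 8 nM, 1032 were down-regulated with no filter, 399 with the filter on all 9 arrays and 309 by adjusted p; with each array left out the range was 465 to 1119, the highest without 8 nM replicate 1. Of 342 recomputed list counts, 320 were within 1.5 times the main count. The causes of these shifts were not tested. Signals under about 13 to 18 in intensity give only bounds.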

Other observations

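The 9 genes of the Sp1-type zinc finger family, which bind the GC box searched for above, were all measured. At 80 nM, 3 were down-regulated and 0 up-regulated, beside 16.3% and 18.8% of all genes. SP1 (-0.16, limma adjusted p = 0.28) and SP3 (0.00), the widely expressed members, were not called. The 3 that fell were SP8, SP6 and SP5. SP8, a limb and neural factor, changed by -1.06 (limma adjusted p = 0.0055). At 8 nM it changed by -0.61 (limma adjusted p = 0.13), where it was called by the unadjusted rule. SP6, of tooth and skin, changed by -1.09 (limma adjusted p = 0.012). SP5, a Wnt target, was at least 1.53-fold lower from a level near background (limma adjusted p = 0.0012), and its call was lost with normexp correction. SP7, of bone (0.44), and SP9, of the developing brain and limb (-0.43), were not called, except SP7 without untreated replicate 3 and SP9 with spike-in scaling.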
